A study of Mus musculus with 6 samples.

Results

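RNA of cultured mouse bone marrow mesenchymal stromal cells (BMSCs) was sequenced with and without all-trans retinoic acid (RA), and 10 imprinted growth genes were followed through the count tables: H19, Meg3, Dlk1, Plagl1, Cdkn1c, Peg3, Mest, Grb10, Zdbf2 and Ndn. They were taken by gene name. Of the 10, 9 were among the 25722 genes listed, and Zdbf2 was not analysed here. The control group held 3 libraries of C57BL/6 BM-MSCs given the solvent DMSO, and the RA group held 3 libraries of the same kind of cells given ATRA. All cultures were wild type, were kept in 5% O2 with 20% serum and 10 µM ROCK inhibitor. The sample labels give 1 µM ATRA and 48 h, whereas the methods of the study give a lower concentration and a shorter time, and the labels speak of 2 biological replicates where 3 libraries per group were deposited. Neither source says whether the libraries came from separate mice, so p-values measure only the spread between these cultures.

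Imprinted genes are transcribed mainly from the copy inherited from 1 parent, under control regions whose DNA methylation was set in egg or sperm and differs between the parental copies. Many act on growth: genes read from the father's copy, such as Igf2, Peg3, Mest, Dlk1 and Plagl1, tend to favour growth of the embryo, and genes read from the mother's copy, such as H19, Cdkn1c and Grb10, tend to restrain it. They often lie in clusters under a shared control region, and most are high in fetal tissue and low after birth, with some kept in adult stem and stromal cells. The counts do not tell the parental copies apart.

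The sequences below show the start regions of Meg3 and Peg3, shown because some fits that adjust for the library sets described below called them. Without that adjustment neither was called. Of the 10 members, 8 had an entry among the RefSeq start regions used here (GRCm38.p6, 250 bases before to 50 after a start). H19 and Cdkn1c are named only. Capitals mark TATAAA, the half-site AGGTCA read by RA receptors, and TGACGTCA, the cyclic AMP response element, on either strand. TGACGTCA was added to the search after the windows had been read.
Meg3 first start, chr12:109540746-109541045, plus strand: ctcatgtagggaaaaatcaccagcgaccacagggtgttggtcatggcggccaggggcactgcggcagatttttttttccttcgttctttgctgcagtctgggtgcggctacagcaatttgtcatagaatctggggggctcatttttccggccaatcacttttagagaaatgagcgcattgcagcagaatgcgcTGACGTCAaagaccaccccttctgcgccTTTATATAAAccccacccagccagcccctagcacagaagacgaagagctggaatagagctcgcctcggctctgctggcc
Meg3 second start, chr12:109545148-109545447, plus strand: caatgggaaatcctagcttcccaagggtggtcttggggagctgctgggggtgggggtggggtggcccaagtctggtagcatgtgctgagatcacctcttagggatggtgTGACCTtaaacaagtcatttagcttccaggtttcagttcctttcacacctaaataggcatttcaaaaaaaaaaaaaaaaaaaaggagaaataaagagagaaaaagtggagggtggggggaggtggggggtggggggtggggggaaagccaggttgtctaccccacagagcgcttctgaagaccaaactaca
Peg3 start, chr7:6730370-6730669, minus strand: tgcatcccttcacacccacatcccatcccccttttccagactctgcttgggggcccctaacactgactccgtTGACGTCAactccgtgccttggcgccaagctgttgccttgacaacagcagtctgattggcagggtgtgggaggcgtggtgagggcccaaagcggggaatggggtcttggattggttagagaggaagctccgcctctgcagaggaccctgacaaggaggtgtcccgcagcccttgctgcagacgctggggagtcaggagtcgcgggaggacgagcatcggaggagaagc
The first Meg3 window and the Peg3 window each held 1 TGACGTCA, a motif found in 1.79% of all 32851 windows of this length. It was also in a window of Zdbf2, making 3 of the members' 13 windows. The first Meg3 window also held 2 overlapping matches to TATAAA (13.6% of all windows), and the second held 1 AGGTCA (16.3%). Direct repeats of AGGTCA with 5 or 2 bases of any kind between them (each spacing in 0.00913% of windows) had 0 matches in the 13 windows of the members. The Peg3 window also contains the start of Usp29, which is read from the other strand 147 bases away. These are matches of letters only.

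Of the members, 3 are hosts of microRNAs, whose mature forms were not measured here. Their seeds (bases 2 to 8) are in capitals, and all 7 mature forms that RefSeq places in these hosts are shown, with the host in brackets.
mmu-miR-675-5p (in H19): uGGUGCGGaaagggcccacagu
mmu-miR-675-3p (in H19): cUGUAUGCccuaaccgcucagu
mmu-miR-770-5p (in Meg3): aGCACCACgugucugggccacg
mmu-miR-770-3p (in Meg3): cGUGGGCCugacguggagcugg
mmu-miR-1906 (in Meg3): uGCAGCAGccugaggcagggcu
mmu-miR-335-5p (in Mest): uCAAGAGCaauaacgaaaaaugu
mmu-miR-335-3p (in Mest): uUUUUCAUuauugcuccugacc

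Libraries held between 14737636 and 18511905 counts, so 3 counts, the limit that a count of 0 allows, were worth 0.162 to 0.204 CPM (counts scaled to library size, with TMM factors where levels are given); such limits cover counting error only. One control (2) and the first pair of RA-treated libraries (1 and 2), called library set 1, stood apart from controls 1 and 3 and the last RA-treated library (3), called library set 2, over genes as a whole. These sets come from the data and not from the labels, so a difference between them is given as a description with no test. P-values of fits with the set as a covariate do not allow for this choice and may be too small. Values of the members are also given within the sets, while some other genes are given pooled only. Set 1 holds 1 control and set 2 holds 1 RA-treated library. The 20 cell division genes summed to between 1171 and 2071 CPM in set 1 and between 438 and 493 CPM in set 2. Markers of another cell type exceeded those of the labelled one: 14 macrophage markers summed to between 19500 and 21880 CPM, and 15 mesenchymal stromal markers to between 1777 and 4685 CPM, with Thy1, Nt5e and Lum at no more than 21 counts in any library. Lyz2, Adgre1 and Itgam led the macrophage list, and Col1a1, Col1a2 and Cxcl12 the stromal list. By edgeR 0 genes of the stromal (12 tested), macrophage (14), endothelial (4) and cell division (20) lists were called with RA, with 3, 0, 0 and 1 at an unadjusted p under 0.05. Of all genes tested, 2.89% were higher and 2.36% lower at that p. All 20 cell division genes had a higher mean after RA (median log2 fold change 1.11), with a median of 0.86 within set 1, where they summed to 1171 CPM in control 2 against 1897 and 2071, and of -0.12 within set 2; their part in the set 1 values of the members was not tested. Endothelial markers summed to at most 22.4 CPM, led by Pecam1, Vwf and Cdh5. Of the neutrophil and lymphoid markers, 4 of 8 were listed, S100a8 had 15 to 25 counts, and Cd3e, Cd79a and Ms4a1 had at most 1.

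Levels of the members were low to moderate. Per kilobase of exon, Grb10 was highest at 4.59 ± 1.31 CPM per kb (SD over 6 libraries), at the 47.9 percentile of the 13842 genes tested, and Ndn came next at 2.63 ± 0.820. H19 (0.680), Cdkn1c (0.617), Meg3 (0.553), Plagl1 (0.349) and Peg3 (0.283 CPM per kb) followed, and all 5 overlapped their neighbours in this order within the range of the libraries. The ranges of Grb10 (3.21 to 6.22 CPM per kb) and Ndn (1.77 to 3.96) overlapped as well. Mest (0.0634) and Dlk1 (0.0125 CPM per kb) stood last and fell below the expression filter, so 7 members were tested.

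**Figure D1:**
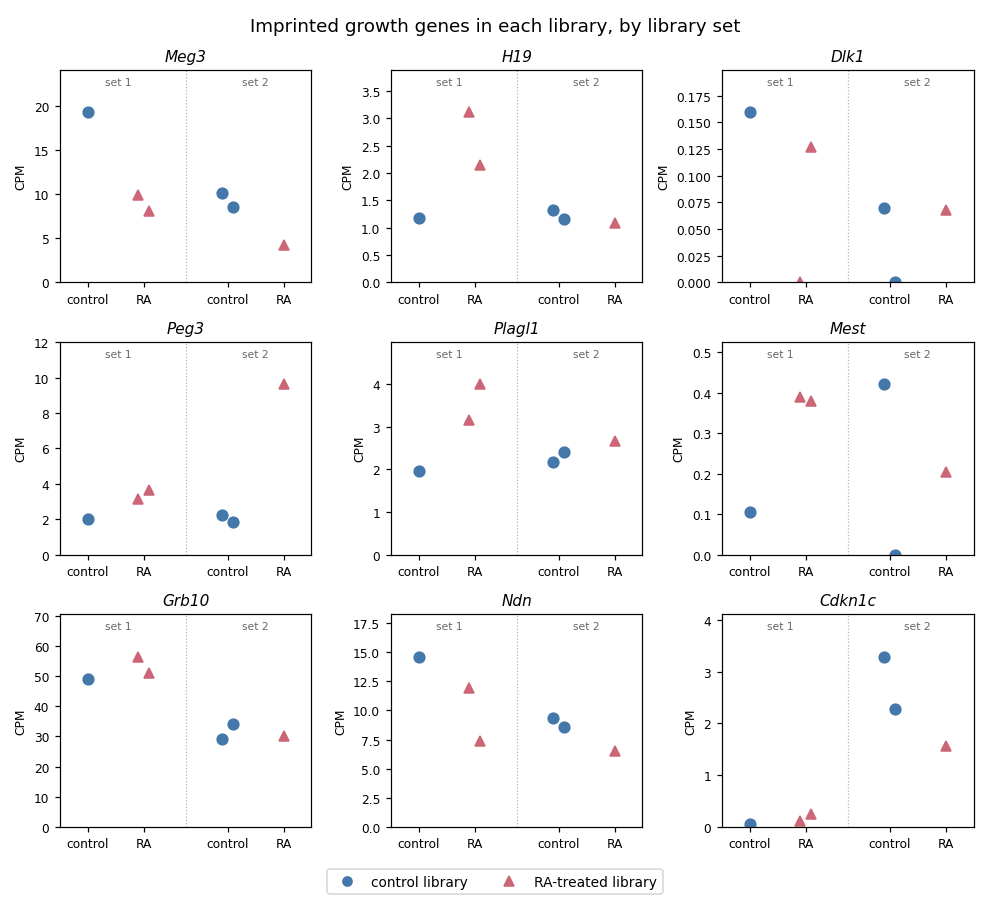
CPM of the 9 members with a row, each point 1 library, split by library set and treatment; the vertical axes start at 0 and differ between panels. Meg3 was lower and Peg3 higher in the RA-treated libraries of each set, and Cdkn1c was under 0.3 CPM in all 3 libraries of set 1.

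The first question was whether RA changed these genes over all 6 libraries. With edgeR's quasi-likelihood test, 0 of the 7 members tested met the threshold of an adjusted p below 0.05 and a change of 1.5-fold or more, where 0.0433% of all genes tested did. DESeq2 and limma-voom also called 0. At an unadjusted p under 0.05, 1 member was higher after RA (Peg3; 2.89% of all genes were) and 0 were lower (2.36%), and each of DESeq2 and limma-voom put 1 member under 0.05. In 2 members, Peg3 and Plagl1, all RA-treated libraries lay above all controls in CPM (5.71% of all genes), and in 0 members did they lie below (6.87%). The median log2 fold change of the 7 was 0.29, against -0.02 for all genes tested. With the library set as a covariate it was 0.03, against -0.004 for all genes, and within sets 1 and 2 it was 0.72 and -0.17.

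Meg3, a long noncoding RNA read from the mother's copy (ENSMUSG00000021268, chromosome 12 of GRCm38 from 109541001 to 109571726), was lower after RA in each library set. In set 1 it had 19.3 CPM in control 2 against 9.84 in RA-treated 1 and 8.12 in RA-treated 2. In set 2 it had 10.1 and 8.53 CPM in controls 1 and 3 against 4.23 in RA-treated 3. The groups overlapped when pooled, since the controls of set 2 stood at the level of the RA-treated libraries of set 1. Pooled, Meg3 went from 12.6 ± 5.80 CPM (SD, n = 3) to 7.40 ± 2.87 (SD, n = 3), a log2 fold change of -0.77 (SE, the standard error, 0.42, adjusted p = 0.795 by edgeR). Within sets 1 and 2 the log2 fold changes were -1.10 and -1.11. After adjustment for library set Meg3 met the threshold, with a log2 fold change of -1.11 (SE 0.15, adjusted p = 0.0167 by edgeR). That p-value does not allow for sets taken from these same data. Meg3 was the 1 member called in that direction, where 0.795% of all genes were, and 0 members were called higher (0.744%). DESeq2 (adjusted p = 5.08e-05) and limma-voom (adjusted p = 0.0161) with the same covariate also called it. Leaving out control 1, 2 or 3 or RA-treated 3 took the edgeR adjusted p above 0.05 (0.113, 0.269, 0.0885 and 0.101), with log2 fold changes from -1.17 to -1.04 over all 6 such fits. Without control 2 or RA-treated 3 the adjusted value comes from 1 set only. The pooled value was less steady, from -1.01 without RA-treated 1 to -0.31 without control 2.

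The other RNAs of the cluster between Dlk1 and Dio3, in which Meg3 lies, were examined next, a grouping made after their values had been seen. Rian, the noncoding RNA downstream of Meg3 on the same strand, had 159 counts in control 2 against 82 and 73 in RA-treated 1 and 2, and 38 and 59 in controls 1 and 3 against 12 in RA-treated 3. Dio3, which encodes the deiodinase that inactivates thyroid hormone, had 86 counts against 70 and 44 in set 1, and 41 and 51 against 30 in set 2. Mirg, a microRNA host further along, had 10 counts against 6 and 1, and 4 and 2 against 0. All 3 thus lay lower after RA within both sets, as did 23.5% of all genes tested, but their sizes differed. After adjustment for the set the log2 fold change was -1.26 for Rian (SE 0.30, adjusted p = 0.107 by edgeR) and -0.53 for Dio3 (SE 0.23, adjusted p = 0.338 by edgeR). Mirg fell below the filter, as did 2 other genes of the cluster, Begain and Rtl1, whose RA-treated and control libraries overlapped or tied in at least 1 set. Begain had 2 counts in control 2 against 5 and 2, and 9 and 2 in controls 1 and 3 against 1, and Rtl1 had 7 counts against 1 and 0, and 0 and 4 against 0. Dlk1 itself, a membrane protein that holds back fat cell formation, was at or under 3 counts in every library (3, 0 and 2 in set 1, with control 2 first, and 1, 0 and 1 in set 2, with RA-treated 3 last), so no fold is given for it.

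Ndn encodes necdin, a protein read from the father's copy that restrains cell division (ENSMUSG00000033585, chromosome 7 from 62346569 to 62350262). It had 14.6 CPM in control 2 against 11.9 and 7.36 in RA-treated 1 and 2. In set 2 it had 9.32 and 8.60 CPM in controls 1 and 3 against 6.55 in RA-treated 3. It was therefore lower after RA within both sets, with the pooled groups overlapping. The pooled log2 fold change was -0.33 (SE 0.32, adjusted p = 0.810 by edgeR), from -0.62 without RA-treated 1 to -0.04 without control 2, and after adjustment for the set it was -0.53 (SE 0.20, adjusted p = 0.293 by edgeR). The other imprinted genes of its cluster went different ways. Snrpn, at lower positions on the same chromosome, had 87 counts against 56 and 52 in set 1 and 36 and 35 against 27 in set 2. Peg12 (4 to 15 counts) was lower within both sets as well. Ube3a was higher within both (log2 differences of 0.26 and 0.14), Mkrn3 had 2 to 6 counts with no common direction, and Magel2 and Snurf had at most 1 and 4 counts.

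Stromal markers differed between the same libraries. The 15 stromal markers summed to 4685 CPM in control 2 against 3643 and 2395 in RA-treated 1 and 2, and to 2417 and 2668 in controls 1 and 3 against 1777 in RA-treated 3. The sum was thus lower after RA within both sets, like Meg3 and Ndn, and its 3 collagen genes Col1a1, Col1a2 and Col3a1 made up between 59.3% and 79.0% of it. The markers did not move as 1. Of the 12 tested, 6 were lower within both sets (23.5% of all genes tested), the 3 collagens among them. Another 3 (Lepr, Cxcl12 and Pdgfra) were higher (18.5%). Lepr, the leptin receptor, had 9 counts in control 2 against 45 and 48, and 7 in each of controls 1 and 3 against 139 in RA-treated 3, and was called higher after adjustment for the set (log2 fold change 3.58, adjusted p = 0.00644 by edgeR). Ly6a, a surface marker, was called lower in the same fit (-0.91, adjusted p = 0.0152 by edgeR). Their part in the values of the members was not tested. In bulk RNA, fewer stromal cells and less RNA per cell cannot be told apart. Scaled to the stromal marker counts (CPM computed over these markers alone), a scale added after the data were examined, Ndn had 3399 ± 397 (SD, n = 3) in control and 3341 ± 314 (SD, n = 3) in RA-treated libraries, a difference smaller than the spread. Meg3 had 4109 in control 2 against 2701 and 3389 in RA-treated 1 and 2, and 4172 and 3195 in controls 1 and 3 against 2381 in RA-treated 3, so that it was lower within both sets on this scale too (log2 differences of -0.44 and -0.61), by less than in CPM. The choice of markers mattered: the stromal markers other than the 3 collagens summed to 986 CPM in control 2 against 1039 and 936, and to 636 and 715 against 723, and scaled to these, Meg3 differed by -1.11 and -1.23 (log2) and Ndn by -0.64 and -0.55 within sets 1 and 2.

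**Figure D2:**
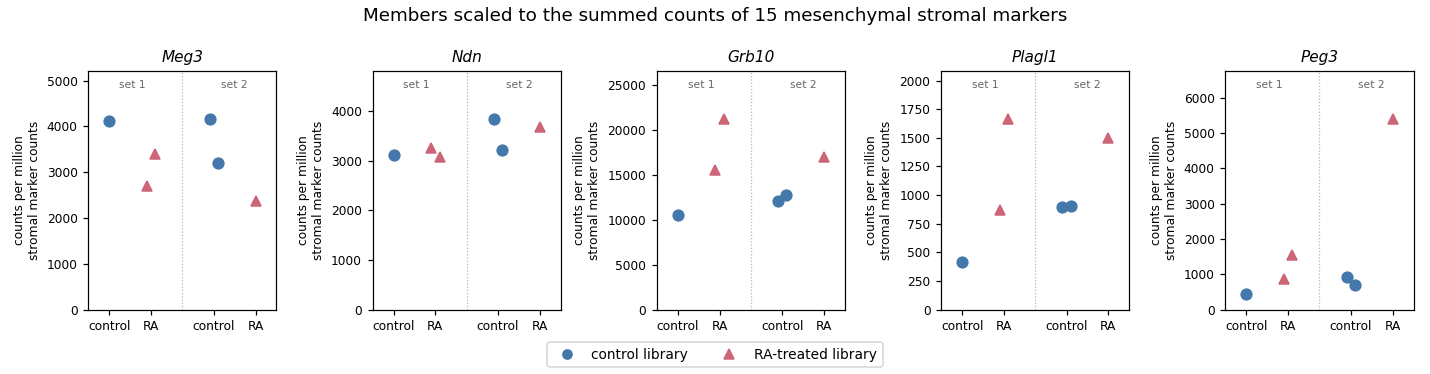
Counts of 5 members scaled to the 15 stromal markers (CPM computed over these markers alone), each point 1 library, split by library set and treatment, with vertical axes from 0. Ndn lay between 3071 and 3854 in all 6 libraries, and the 3 RA-treated libraries stood above the 3 controls for Grb10, with 15520 to 21260 against 10500 to 12780. The groups of Peg3 and Plagl1 overlapped, as did those of Grb10 with the 3 collagens left out of the scale.

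Peg3, which encodes a zinc finger protein read from the father's copy (ENSMUSG00000002265, chromosome 7 from 6703892 to 6730431), lay above all 3 controls in CPM in each of the RA-treated libraries. It had 2.02 CPM in control 2 against 3.17 and 3.68 in RA-treated 1 and 2. In set 2 it had 2.24 and 1.86 CPM in controls 1 and 3 against 9.62 in RA-treated 3. The controls lay close together, whereas RA-treated 3 stood far above the other two. The pooled log2 fold change was 1.42 (SE 0.46, adjusted p = 0.795 by edgeR), and it was 0.72 within set 1 and 2.17 within set 2. Without RA-treated 3 the pooled value was 0.74, and 0.75 after adjustment for the set (adjusted p = 0.376 by edgeR). After adjustment for the set it was 1.55 (SE 0.33, adjusted p = 0.0734 by edgeR), and DESeq2 with that covariate called it (adjusted p = 0.00883). With 1 library left out, that edgeR fit called Peg3 without RA-treated 2 (adjusted p = 0.0149) and not without control 1, control 3 or RA-treated 1 (adjusted p = 0.352, 0.259 and 0.0660). Without control 2 the adjusted p was 0.0291, but that value rests on RA-treated 3 alone against controls 1 and 3, since set 1 then has no control.

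Whether the effect of RA on a member differed between the sets was tested as an interaction. Of the 7 members, 0 were called by edgeR (0.00% of all genes tested), and 1, Peg3, had an unadjusted p under 0.05, as did 3.74% of all genes tested. The estimated effect on Peg3 in set 2, which rests on RA-treated 3 alone, minus that in set 1 was 1.47 on the log2 scale and did not pass the test (SE 0.43, unadjusted p = 0.0108 by edgeR, adjusted p = 0.997). This fit has few residual degrees of freedom.

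The neighbours of Peg3 were low but lay on the same side. Zim1, a zinc finger gene read from the mother's copy, had 10 counts in control 2 against 17 and 13, and 9 and 4 in controls 1 and 3 against 19 in RA-treated 3, with a log2 fold change of 1.07 (SE 0.40, adjusted p = 0.795 by edgeR). Usp29, whose start lies in the Peg3 window shown above, had 1 count against 5 and 14, and 4 and 2 against 7. Both were higher after RA within both sets, as were 18.5% of all genes tested. Usp29 fell below the filter.

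**Figure D3:**
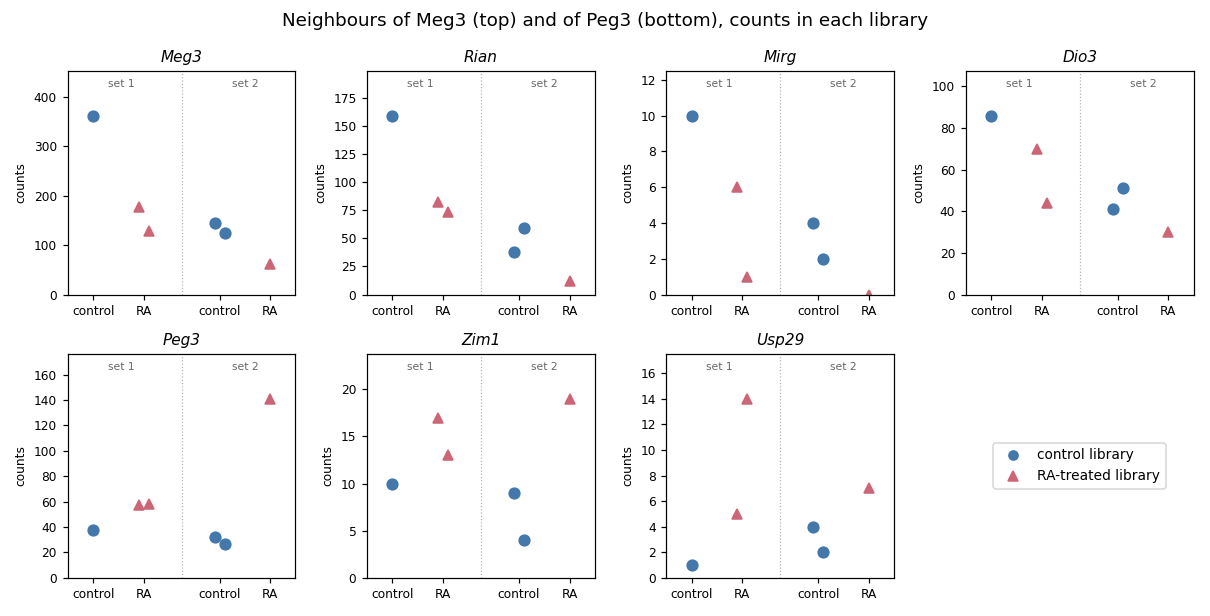
Counts in each library, not scaled for library size, of Meg3 and 3 neighbours (top) and of Peg3 and 2 neighbours (bottom), split by library set and treatment. The genes drawn in the top row were lower and those in the bottom row higher after RA within each set, with Mirg at 10 counts or fewer and Usp29 at 14 or fewer; Begain, Rtl1 and Dlk1, at 9 counts or fewer, are not drawn.

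Plagl1 encodes a zinc finger transcription factor, read from the father's copy, that acts on other imprinted genes (ENSMUSG00000019817, chromosome 10 from 13060504 to 13131694). It had 37 counts in control 2 against 57 and 63 in RA-treated 1 and 2, and 31 and 35 in controls 1 and 3 against 39 in RA-treated 3. The level was 2.18 ± 0.220 CPM (SD, n = 3) in control and 3.28 ± 0.673 CPM (SD, n = 3) in RA-treated libraries. The groups did not overlap in CPM, but RA-treated 3 lay close to control 3. The log2 fold change was 0.59 (SE 0.25, adjusted p = 0.795 by edgeR), with 0.82 within set 1 and 0.21 within set 2. Mest, which encodes a protein of the hydrolase fold and is read from the father's copy, had 2 counts in control 2 against 7 and 6, and 6 and 0 counts in controls 1 and 3 against 3. Its groups overlapped, and 912 of its exon bases are shared with Copg2 on the other strand, which had between 860 and 1093 counts, so reads there cannot be told apart without strand.

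H19, a noncoding RNA read from the mother's copy (ENSMUSG00000000031, chromosome 7 from 142575529 to 142578143), had 1.17 CPM in control 2 against 3.11 and 2.16 in RA-treated 1 and 2. In set 2 it had 1.33 and 1.17 CPM against 1.09 in RA-treated 3. It was thus higher in the RA-treated libraries of set 1 alone, and the interaction did not pass the test (edgeR unadjusted p = 0.0741). The pooled log2 fold change was 0.80 (SE 0.41, adjusted p = 0.795 by edgeR), from 0.43 without RA-treated 1 to 1.11 without RA-treated 3. Igf2, the growth factor gene that shares enhancers with H19 and is read from the father's copy, had 206 counts in control 2 against 158 and 134, and 245 and 230 against 183. It was lower within both sets, with a log2 fold change of -0.56 (SE 0.25, adjusted p = 0.795 by edgeR); it is named after its values were seen.

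Cdkn1c encodes p57, an inhibitor of cyclin-dependent kinases (ENSMUSG00000037664, chromosome 7 from 143458339 to 143461050). It had 1 count in control 2, and 2 and 4 in RA-treated 1 and 2. In set 2 it had 47 and 33 counts in controls 1 and 3 and 23 in RA-treated 3. The sets did not overlap, with a mean of 0.139 CPM in set 1 and 2.38 in set 2, and it passed the filter through set 2. The pooled log2 fold change of -1.54 (SE 1.26, adjusted p = 0.803 by edgeR) mixed the sets and ran from -3.31 without RA-treated 3 to -0.84 without control 1: within set 2 it was -0.76, and in set 1 the counts are too few to give one. The cell division genes ran the other way between the sets, their sum lying higher in every library of set 1; their part in the difference was not tested. Ascl2, on the same stretch of chromosome 7 and named after its values were seen, also had fewer counts in set 1 (39, 42 and 37) than in set 2 (157, 111 and 108). Kcnq1ot1, the noncoding RNA of that cluster, also named after its values were seen, was higher in all RA-treated libraries than in all controls (5.71% of all genes tested). It had 24.3 CPM in control 2 against 26.5 and 35.2, and 19.8 and 23.7 in controls 1 and 3 against 27.0, with a log2 fold change of 0.39 (SE 0.17, adjusted p = 0.795 by edgeR). Slc22a18 and Cd81 of that cluster were lower after RA within both sets (23.5% of all genes tested). Kcnq1 and Phlda2 had at most 4 and 1 counts.

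Grb10 encodes an adaptor that binds and restrains the insulin and IGF-1 receptors (ENSMUSG00000020176, chromosome 11 from 11930508 to 12038683), and it was the most abundant member. It had 49.2 CPM in control 2 against 56.5 and 50.9 in RA-treated 1 and 2. In set 2 it had 29.2 and 34.1 CPM in controls 1 and 3 against 30.2 in RA-treated 3. The levels followed the library set and not RA, with set means of 52.2 and 31.2 CPM. The sum of the 15 stromal markers was lower after RA within both sets. Scaled to it, all RA-treated libraries lay above all controls for Grb10 (log2 difference 0.60) and for H19 (0.98). The share of all genes that did so on this scale was not computed. Without the 3 collagens these differences were 0.06 and 0.44, and the groups overlapped for both genes. The pooled log2 fold change of Grb10 was 0.29, from 0.14 without RA-treated 1 to 0.55 without control 2. After adjustment for the set it was 0.03 (SE 0.11, adjusted p = 0.898 by edgeR).

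**Figure D4:**
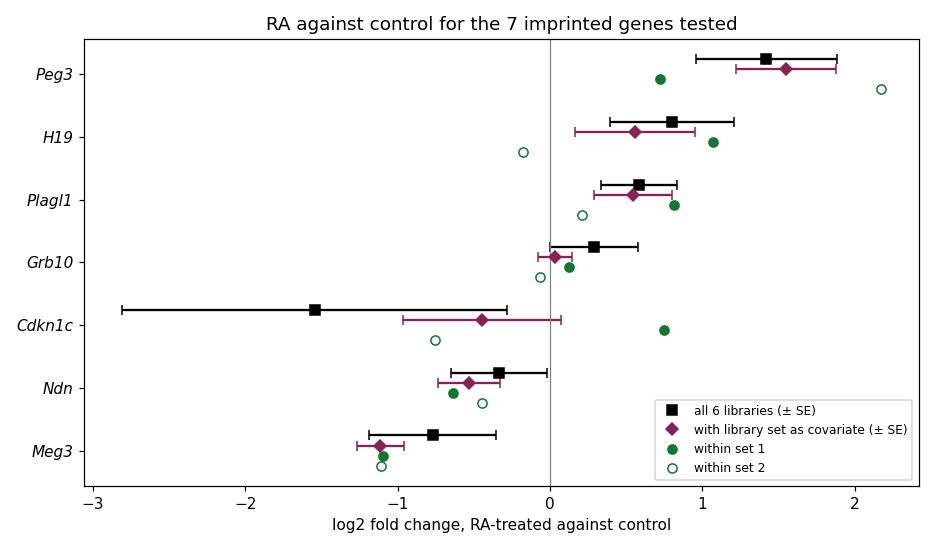
Log2 fold change of RA-treated against control libraries for the 7 members tested: squares, all 6 libraries; diamonds, with the library set as a covariate (bars, standard error for both); filled and open circles, within sets 1 and 2 (no error). Meg3 stood at -1.10 and -1.11 within the sets, Peg3 at 0.72 and 2.17, and the circle of Cdkn1c in set 1 rests on 1 to 4 counts.

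For the 3 members with the highest CPM, not scaled for length (Grb10, Meg3 and Ndn), the genes with the most similar levels were read off as a description, with Pearson's r of log2 CPM over the same 6 libraries, which fall into the 2 sets. They were Lta4h, Ftsj1 and Cep76 for Grb10 (r = 0.998 for each), Fkbp1a, Efnb1 and Dok4 for Ndn (r = 0.9995, 0.999 and 0.997), and Setd4, Triobp and Flot2 for Meg3 (r = 0.998, 0.996 and 0.996). Among the 7 members tested, the pairs farthest from 0 were Cdkn1c with Grb10 (r = -0.943), Meg3 with Ndn (0.905) and Meg3 with Peg3 (-0.812).

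Of 44 other imprinted genes, 43 were listed and 30 tested. The median log2 fold change was -0.23, against -0.02 for all genes. By edgeR 0 were called, and 2 were higher and 2 lower at an unadjusted p under 0.05 (2.89% and 2.36% of all genes tested). Rasgrf1, an exchange factor for Ras proteins read from the father's copy, was lower by the widest margin of those 4 (log2 fold change -1.73, SE 0.49, adjusted p = 0.660 by edgeR), with 6 to 14 counts after RA and 26 to 45 in controls. Blcap had a log2 fold change of -0.43 and Smoc1, a secreted matrix protein, one of 0.70 (edgeR adjusted p = 0.657 and 0.795). The most abundant were Gnas, Igf2r and Cd81, with log2 fold changes of -0.16, 0.06 and -0.35. After adjustment for the set these were -0.05, -0.04 and -0.18, the sign of Igf2r turning. Within both sets, 14 of the 30 were lower after RA and 6 higher, beside 23.5% and 18.5% of all genes tested. Of the 18 genes that set or keep imprints, 14 were tested and 0 were called by edgeR, with 0 at an unadjusted p under 0.05. The most abundant were Trim28, Tet3 and Dnmt1, the maintenance DNA methyltransferase, with log2 fold changes of -0.05, -0.39 and 0.36. With the set as a covariate these were -0.14, -0.26 and 0.04. Within sets 1 and 2, Tet3 stood at -0.44 and -0.09 and Dnmt1 at 0.28 and -0.20.

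Of 29 partners of the members, such as the receptors bound by Grb10 and the cyclins and kinases held by p57, 28 were tested. By edgeR without the set as a covariate 0 were called, and 1 was lower at an unadjusted p under 0.05 (2.36% of all genes tested were). That was Sox9, a cartilage transcription factor, with a log2 fold change of -1.58 (SE 0.37, adjusted p = 0.426 by edgeR) and 9 to 15 counts after RA against 25 to 48 in controls. Ccnd2, a D cyclin, was called after adjustment for the set, at -0.77 (edgeR adjusted p = 0.00861), and had 413 CPM in control 2 against 245 and 224, and 221 and 250 in controls 1 and 3 against 144. The most abundant partners were Fn1, which encodes fibronectin, Nedd4, a ubiquitin ligase bound by Grb10, and Notch2, with pooled log2 fold changes of -0.21, -0.07 and -0.08. After adjustment for the set Nedd4 stood at -0.34 (adjusted p = 0.115 by edgeR), and the sign of Notch2 turned (0.12). Fn1 is also high in stromal cells, and with that covariate its log2 fold change was -0.51 (edgeR adjusted p = 0.0290), short of 1.5-fold. As a check of the labels, 10 retinoid response genes were tested, all 10 had a higher mean after RA, 2 were called by edgeR, and all 12 on that list summed to 565 to 621 CPM against 233 to 256 CPM.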

How the data were processed

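RNA was measured in 6 libraries of mouse BMSCs, 3 control and 3 RA-treated, grouped by sample title. The authors deposited unnormalized counts, giving for each library the reads assigned to every gene. The submitters' processing notes name Bowtie2 2.2.3 and mm10; the counting program and its strand setting are not given in the sources used here. All 25722 identifiers were found in GENCODE M21 (GRCm38), the build behind mm10, which gave positions and exon lengths, and 24 names that had been turned into dates were restored.

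Counts were analysed in R 4.3.3 with edgeR 4.0.16 (TMM scaling, filterByExpr, quasi-likelihood F test, Benjamini-Hochberg adjustment over 13842 genes). Calls needed an adjusted p under 0.05 and at least 1.5-fold. Standard errors came from the log2 fold change and F. Within-set values used log2 CPM with a prior count of 2, as no spread can be had for a lone library. Alternatives used DESeq2 1.42.0, limma 3.58.1, other scalings and filters, a replicate block, the library set as a covariate and leaving out each library. The fit was tested on simulated data that held no difference between library sets, and the covariate fit was not tested in this way. Named genes were all members, the 3 most abundant of each cell type marker list and of the lists of other imprinted genes, upkeep factors and partners and, in those last 3 lists, those at an unadjusted p under 0.05 or called with the covariate; other marker genes and neighbours were named after their values were seen. Members, lists and library sets were chosen with earlier results of these data known. Scaling to stromal markers, combined covariate fits and clusters of neighbours were added after seeing the data. Total counts leave wide counting error for genes near 3 counts.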

Additional observations from a re-analysis of the deposited data

How the results depend on the processing

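Genes called over all 6 libraries went from 6 to 20 without a filter, 136 with DESeq2, 3 with limma-voom and 213 after adjustment for library set; leaving out 1 library gave 0 to 6. That adjustment takes the differences between sets out of the residual spread; the cause was not tested for the rest. Members called stayed at 0 (0 to 0 with 1 library left out) in fits without the covariate. The edgeR fit with the covariate called 1, Meg3; DESeq2 with it also called Peg3, as did edgeR without RA-treated 2 or without control 2, the latter resting on RA-treated 3 alone. The members' median log2 fold change of 0.29 (0.44 without Cdkn1c, left out after its counts were seen) was 0.72 within set 1 (0.42 without it) and -0.17 within set 2, and ran from 0.14 to 0.53 with 1 library left out. With the replicate block, 0 members and 4 genes were called. Same-numbered libraries deviated from their group means with correlations of -0.51, 0.343 and 0.572, so the numbers were not taken as pairs. Calls of members for the interaction with the set stayed at 0. As 0.00% of all genes tested were called in the main interaction fit, this count cannot show steadiness. No member changed sign in the tested fits over the 3 scalings, the 2 filters, the other tools, the block, the covariate or the fits with 1 library left out. With both that adjustment and 1 library left out, combinations added after the data were examined, H19 (-0.18) and Grb10 (-0.055) turned without control 2, where RA-treated 3 alone is left to compare, and Grb10 (-5e-04) without control 1. Cdkn1c has no usable value without RA-treated 3, as it then rests on 1, 2 and 4 counts. Igf2r (-0.036) and Notch2 (0.12) turned with the covariate. With 1 library left out, the log2 fold changes with both signs were those of Igf2r (-0.038 to 0.22), Notch2 (-0.41 to 0.068), Trim28 (-0.17 to 0.11), Fn1 (-0.38 to 0.19) and Nedd4 (-0.24 to 0.27). The minimum of 10 counts in every library left out Cdkn1c, which then has no value.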
